A study of Mus musculus with 80 samples.

Results

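The 10 genes described here encode enzymes that oxidize aldehydes or reduce carbonyl compounds: the aldehyde oxidases Aox1 and Aox3, the aldehyde dehydrogenases Aldh1a1, Aldh1a7, Aldh2, Aldh3a1 and Aldh3a2, and the carbonyl reductases Cbr1, Cbr2 and Cbr3. Each was taken by its symbol from the probe annotation, and a gene with several probe sets was represented by the one whose mean on the 80 arrays was highest. They are 10 of 17097 genes with a symbol and 10 of the 11406 genes tested. All 10 had a signal above the median of the whole table (4.28) on all 80 arrays, so the filter on low signal removed none. Aldh2 had 3 probe sets and the others 1 each. A level of one probe set was not set against that of another, since their binding differs.

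Affymetrix arrays were used to measure RNA of whole lung from adult male mice that had inhaled styrene, an aromatic solvent used in plastics, once for 6 h, and lungs were collected the next morning. There were 4 strains: C57Bl/6 CYP2F2 knockout mice (KO), C57Bl/6 CYP2F1 humanized mice (TG), CD-1 mice, an outbred stock, and C57Bl/6 wild-type mice (WT). Each strain was exposed to 0 (air), 10, 40 or 120 ppm, with 5 biological replicates in each of the 16 groups. All mice were males from 1 supplier. Arrays are numbered below by their replicate. The promoter that drives CYP2F1 in TG mice, the cells that express it and whether these mice also lack Cyp2f2 were not given in these sources. Values are log2 signal, so a difference of 1 is a doubling. A change was called when its adjusted p in limma, a linear model fitted across all 11406 tested genes, was under 0.05.

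Styrene is oxidized in the lung mainly by cytochrome P450 enzymes of club cells, which are secretory cells of the bronchiolar epithelium, and CYP2F2 is the main such enzyme in mice, while CYP2F1 is its human counterpart. Aldehyde dehydrogenases turn aldehydes into carboxylic acids with NAD or NADP as the electron acceptor, aldehyde oxidases are molybdenum-containing flavoenzymes that oxidize aldehydes and nitrogen heterocycles with oxygen, and carbonyl reductases use NADPH to turn ketones, quinones and aldehydes into alcohols. Mouse lung is known for a high content of the carbonyl reductase CBR2, found in club cells and other lung cells, and club cells are rich in ALDH1A1.

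Arrays of one group correlated at 0.978 to 0.997, and no columns were identical. The median signal of an array lay between 4.09 and 4.20 in KO, 3.84 and 4.14 in TG, 4.24 and 4.30 in CD-1 and 4.53 and 4.60 in WT, so levels of different strains were compared only after each array was centred on its median over the tested genes. TG 0 ppm replicate 4 had the lowest median (3.84), and results in TG that rest on it are given with this. Cyp2f2, the targeted gene, lay 4.58 to 4.82 above the array median on the KO air arrays and 5.84 to 5.92 above it on the WT air arrays, with no overlap. On the TG air arrays Cyp2f2 lay 4.57 to 5.23 above the array median, a range that spans that of KO and lies below that of WT. On the CD-1 air arrays it lay 5.77 to 6.05 above the median. Whether the Cyp2f2 probes lie inside the deleted part is not given, so these ranges are a weak check of the labels. The lung epithelial markers listed for this work were present: 11 of 12 club, 6 of 6 ciliated and 6 of 8 alveolar type 2 markers were tested. On 3 arrays the mean of 15 markers of squamous epithelium stood apart, at 6.96 in CD-1 0 ppm replicate 4, 7.83 in WT 0 ppm replicate 1 and 7.74 in WT 40 ppm replicate 3, against 3.25 to 4.44 on the other 77 arrays. They matter for Aldh3a1, described further on, and the called changes of the 10 genes, their correlations and the genes most like them are also given without them. The number of arrays limits the precision, and the median standard error of a dose change over all genes was 0.09 for KO, 0.11 for TG and CD-1 and 0.08 for WT.

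In WT lungs, 7 of the 10 genes differed from air at every dose. Aox3, Aox1, Aldh1a1, Aldh1a7, Aldh2 and Cbr2 fell and Cbr3 rose at 10, 40 and 120 ppm, while Cbr1, Aldh3a1 and Aldh3a2 did not pass the test at any dose. In 1 fit on all 80 arrays, 3 of these 21 calls were lost, Aldh1a7 and Aox1 at 10 ppm (limma adjusted p = 0.0803 and 0.0821) and Aldh2 at 120 ppm (0.0554). Over all tested genes 12.6% were called at 10 ppm, 26% at 40 ppm and 23.9% at 120 ppm. The 6 genes called lower stood beside 4.9, 12.4 and 9.65% of all genes called lower at 10, 40 and 120 ppm, and the 1 called higher beside 7.67, 13.7 and 14.3%. The median change of the 10 genes was -0.27 at 10 ppm, -0.39 at 40 ppm and -0.39 at 120 ppm, against 0.00, -0.01 and 0.01 over all tested genes. The 5 exposed arrays did not overlap the 5 air arrays for 5 members at 10 ppm and for 7 at 40 and at 120 ppm, where this held for 10.2, 18.3 and 19.9% of all tested genes. The members and the lists below were chosen with earlier results of these data known. Counts above the shares over all genes therefore cannot show that such genes respond more than others.

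**Figure D1:**
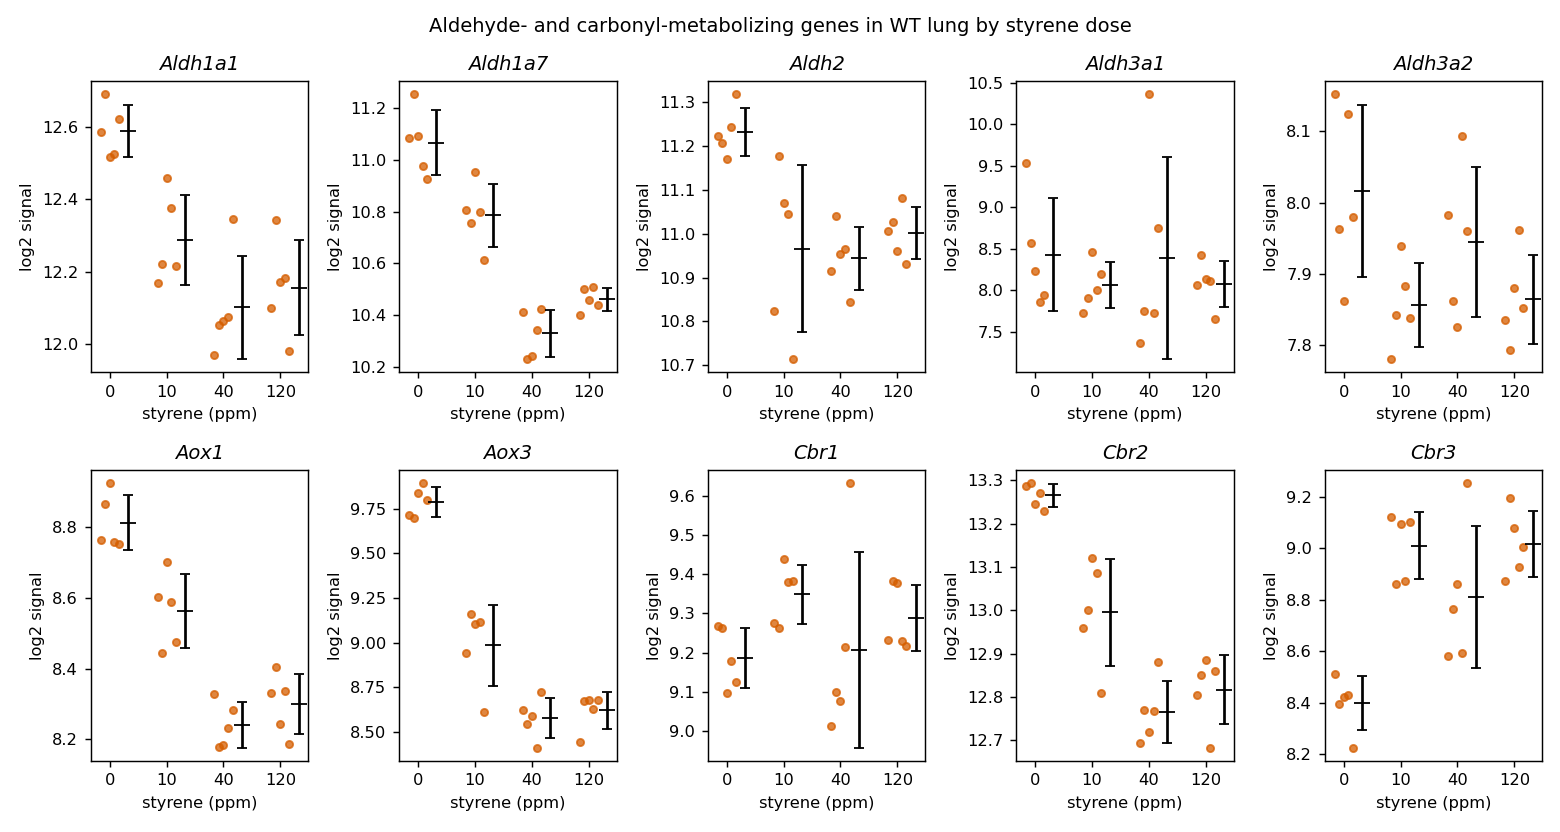
Log2 signal of each of the 10 genes in WT lung against styrene dose in ppm, 1 panel per gene. Points are single arrays and bars are the mean and SD of 5 arrays. Aox3 lay between 8.44 and 8.68 at 120 ppm and between 9.70 and 9.89 in air, Cbr3 ran the other way, and Aldh3a1 spread from 7.36 to 10.36 at 40 ppm.

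Aox3 and Aox1 are neighbours on mouse chromosome 1 (GRCm38.p6), Aox1 at chr1:58029809-58106410 (probe set 1419435_PM_at) and Aox3 at chr1:58113135-58202221 (probe set 1418858_PM_at). A gap of 6724 bases with no annotated protein-coding gene separates them. AOX3 is known in mice as the aldehyde oxidase of liver, and AOX1 has a wider range of tissues. Of the members, Aox3 had the largest change at each dose in WT lungs, and Aox1 fell with it by less.

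Aox3 had 9.71, 9.70, 9.84, 9.89 and 9.80 on the 5 WT air arrays and 8.94, 9.16, 9.10, 9.12 and 8.61 at 10 ppm. It had 8.62, 8.54, 8.59, 8.41 and 8.72 at 40 ppm and 8.44, 8.68, 8.68, 8.63 and 8.68 at 120 ppm. Every exposed array lay below every air array, and all arrays at 40 and 120 ppm also lay below 4 of the 5 arrays at 10 ppm. The signal fell by 0.80 ± 0.09 (SE, n = 5 per group) to 57.3% of air at 10 ppm, by 1.21 ± 0.09 to 43.2% at 40 ppm and by 1.17 ± 0.09 to 44.5% at 120 ppm. The limma adjusted p was 3.41e-06, 2.67e-08 and 4.78e-08. The 95% intervals were -0.99 to -0.62, -1.40 to -1.03 and -1.35 to -0.98.

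Aox1 had 8.77, 8.87, 8.93, 8.76 and 8.75 in WT air, 8.60, 8.45, 8.70, 8.59 and 8.48 at 10 ppm, 8.33, 8.18, 8.18, 8.23 and 8.28 at 40 ppm and 8.33, 8.40, 8.24, 8.34 and 8.19 at 120 ppm. The air arrays were the highest, those at 10 ppm lay between, and those at 40 and 120 ppm shared 1 range below. It fell to 84.1, 67.2 and 70.1% of air at 10, 40 and 120 ppm (log2 change -0.25, -0.57 and -0.51, each ± 0.06, limma adjusted p = 0.0072, 1.27e-06 and 4.61e-06). In whole lung, fewer cells of a type and less RNA per cell cannot be told apart, here or for any gene below.

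The DNA before an annotated start of Aox3 and of Aox1 is shown because these neighbours moved the same way. The windows are the 200 bases before an annotated start from RefSeq (GRCm38.p6), Aox3 at chr1:58112936-58113135 and Aox1 at chr1:58029769-58029968, both on the plus strand and written 5′ to 3′. The Aox1 window lies before a start inside the gene as placed above. Most of its bases, with both marked motifs, follow the gene's first base. Capitals mark the motifs searched, which were the antioxidant response core TGACNNNGC, the xenobiotic response core GCGTG, the octamer ATGCAAAT and the CCAAT box CCAAT, each on both strands.
Aox3: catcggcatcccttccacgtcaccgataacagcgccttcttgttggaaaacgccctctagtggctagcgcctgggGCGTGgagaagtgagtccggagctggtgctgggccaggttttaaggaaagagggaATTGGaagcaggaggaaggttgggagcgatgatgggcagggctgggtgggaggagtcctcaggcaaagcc
Aox1: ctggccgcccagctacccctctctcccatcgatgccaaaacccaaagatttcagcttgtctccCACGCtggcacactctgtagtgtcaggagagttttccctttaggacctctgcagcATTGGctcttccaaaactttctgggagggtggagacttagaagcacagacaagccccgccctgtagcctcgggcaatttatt
Both windows held a GCGTG, on the plus strand in Aox3 and on the minus strand (printed as CACGC) in Aox1, and a CCAAT on the minus strand (printed as ATTGG). Aligned, they were identical at 102 of 174 bases (58.6%), and the longest run they shared was 7 bases. Of 32851 windows of this length in the promoter table, 24.7% held GCGTG and 29.3% held CCAAT. A match is a description of letters and not a binding site.

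Among the aldehyde dehydrogenases, Aldh1a7 and Aldh1a1 fell most, Aldh2 less, and Aldh3a2 and Aldh3a1 gave no call. ALDH1A1 is a cytosolic retinal dehydrogenase, and ALDH1A7 is a close relative known from rodents. Aldh1a1 lies at chr19:20492583-20643463 (probe set 1416468_PM_at) and Aldh1a7 at chr19:20692953-20727556 (probe set 1418601_PM_at), 49489 bases apart with no annotated protein-coding gene between. Because they are close relatives, part of one probe set's signal may come from the other gene, which was not tested.

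Aldh1a7 had 11.09, 11.25, 11.09, 10.98 and 10.93 in WT air, 10.81, 10.76, 10.95, 10.80 and 10.61 at 10 ppm, 10.41, 10.23, 10.24, 10.34 and 10.42 at 40 ppm and 10.40, 10.50, 10.46, 10.51 and 10.44 at 120 ppm. At 10 ppm 1 array reached into the air range, and at 40 and 120 ppm all arrays were below those of air and of 10 ppm. It fell to 82.3, 60.0 and 65.8% of air (log2 change -0.28, -0.74 and -0.60, each ± 0.07, limma adjusted p = 0.00795, 2.93e-07 and 3.22e-06).

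Aldh1a1 had 12.59, 12.69, 12.52, 12.52 and 12.62 in WT air, 12.17, 12.22, 12.46, 12.38 and 12.22 at 10 ppm, 11.97, 12.05, 12.07, 12.08 and 12.35 at 40 ppm and 12.10, 12.34, 12.17, 12.18 and 11.98 at 120 ppm. All 15 exposed arrays were below the 5 air arrays, and at 40 ppm replicate 5 stood above the other 4. It fell to 81.3, 71.4 and 74.2% of air (log2 change -0.30, -0.48 and -0.43, each ± 0.08, limma adjusted p = 0.013, 0.000152 and 5e-04).

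The starts of this pair are shown because they share a long stretch of sequence. The windows are again 200 bases before an annotated RefSeq start (GRCm38.p6): start site 2 of Aldh1a1 at chr19:20601768-20601967 on the plus strand and Aldh1a7 at chr19:20727557-20727756 on the minus strand, both written 5′ to 3′. Capitals mark the longest run that the windows have in common.
Aldh1a1: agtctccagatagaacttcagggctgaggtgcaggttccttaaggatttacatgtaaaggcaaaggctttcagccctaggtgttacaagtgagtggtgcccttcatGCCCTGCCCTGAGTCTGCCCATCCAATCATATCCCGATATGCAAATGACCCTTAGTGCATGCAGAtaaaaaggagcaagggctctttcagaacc
Aldh1a7: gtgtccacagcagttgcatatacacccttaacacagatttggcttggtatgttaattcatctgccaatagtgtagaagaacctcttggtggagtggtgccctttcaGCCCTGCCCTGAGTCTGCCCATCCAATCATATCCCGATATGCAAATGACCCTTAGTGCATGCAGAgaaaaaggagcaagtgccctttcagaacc
The shared run was 65 bases long and ended 29 bases before the start in both genes. Aligned over the whole windows, 151 of 177 bases were identical (85.3%). The run held the octamer ATGCAAAT, which 1.38% of the 32851 windows held, and a CCAAT box. Start site 1 of Aldh1a1 held none of the 4 motifs.

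ALDH2 is the mitochondrial enzyme that clears acetaldehyde. Aldh2 lies at chr5:121566027-121593824 (probe set 1448143_PM_at). It had 11.22, 11.20, 11.17, 11.24 and 11.32 in WT air, 10.82, 11.18, 11.07, 11.04 and 10.71 at 10 ppm, 10.91, 11.04, 10.95, 10.97 and 10.84 at 40 ppm and 11.01, 11.03, 10.96, 11.08 and 10.93 at 120 ppm. The air arrays were the highest, with 1 array at 10 ppm inside their range. It fell to 83.2, 81.9 and 85.2% of air (log2 change -0.27, -0.29 and -0.23, each ± 0.07, limma adjusted p = 0.0171, 0.00548 and 0.0231). The call at 10 ppm was lost without array 1 or 5 of WT 10 ppm (adjusted p up to 0.0562), and that at 120 ppm without array 5 of WT air or array 5 of WT 120 ppm (up to 0.0581). At 40 ppm it was lost when the mean of the probe sets stood for the gene (0.0959). The probe set 1437410_PM_at differed by -0.43, -0.32 and -0.44 at the 3 doses, with no call, and 1457155_PM_at by -0.43, -0.02 and -0.28, with a call at 10 ppm alone among its 3 doses (limma on all named probe sets, adjusted p = 0.0373).

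Aldh3a1 and Aldh3a2 are neighbours on chromosome 11, at chr11:61208510-61218418 (probe set 1418752_PM_at) and chr11:61223417-61267528 (probe set 1415776_PM_at), 4998 bases apart. ALDH3A2 is the fatty aldehyde dehydrogenase of the endoplasmic reticulum, and ALDH3A1 is known from cornea, stomach and other squamous or surface epithelia. Aldh3a2 ranged from 7.86 to 8.15 in WT air, 7.78 to 7.94 at 10 ppm, 7.83 to 8.09 at 40 ppm and 7.79 to 7.96 at 120 ppm. These ranges overlap. The differences were -0.16, -0.07 and -0.15 (each ± 0.06, limma adjusted p = 0.0923, 0.414 and 0.0777). Without array 3 of WT air those at 10 and 120 ppm passed the threshold (limma adjusted p = 0.0457 at 10 ppm). That at 120 ppm also passed for Aldh3a2 with arrays centred on their median (-0.19, limma adjusted p = 0.0282) and after quantile normalization (-0.18, 0.0319).

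The carbonyl reductases moved apart from each other. CBR2 is a mitochondrial tetrameric reductase of lung, and CBR1 and CBR3 are cytosolic monomers that are close relatives. Cbr2, at chr11:120729485-120732025 (probe set 1418509_PM_at), fell in WT lungs. Cbr3, at chr16:93683219-93690991 (probe set 1427912_PM_at), was the only member that rose in WT by the test, and its neighbour Cbr1, at chr16:93607837-93610349 (probe set 1460196_PM_at) and 72869 bases away, gave no call.

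Cbr2 had 13.29, 13.29, 13.25, 13.27 and 13.23 in WT air, 12.96, 13.00, 13.12, 13.09 and 12.81 at 10 ppm, 12.69, 12.77, 12.72, 12.77 and 12.88 at 40 ppm and 12.80, 12.85, 12.89, 12.68 and 12.86 at 120 ppm. The air arrays lay within a narrow band and all exposed arrays below it. It fell to 82.9, 70.7 and 73.3% of air (log2 change -0.27, -0.50 and -0.45, each ± 0.06, limma adjusted p = 0.00391, 5.38e-06 and 2.01e-05).

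Cbr3 had 8.51, 8.40, 8.42, 8.43 and 8.22 in WT air, 9.12, 8.86, 9.09, 8.87 and 9.10 at 10 ppm, 8.58, 8.77, 8.86, 8.59 and 9.25 at 40 ppm and 8.87, 9.19, 9.08, 8.93 and 9.01 at 120 ppm. All exposed arrays were above the air arrays, by least at 40 ppm, where replicate 5 was the highest. The rise was 1.53-fold at 10 ppm, 1.33-fold at 40 ppm and 1.53-fold at 120 ppm (log2 change 0.61, 0.41 and 0.62, each ± 0.10, limma adjusted p = 0.000529, 0.00674 and 0.000335).

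Cbr1 ranged from 9.10 to 9.27 in WT air, 9.26 to 9.44 at 10 ppm, 9.01 to 9.63 at 40 ppm and 9.22 to 9.38 at 120 ppm, and each range overlapped that of air. The differences were 0.16, 0.02 and 0.10 (each ± 0.09, limma adjusted p = 0.242, 0.89 and 0.431). WT 40 ppm replicate 5 was the highest of its group for 6 of the 10 members (Aldh1a1, Aldh1a7, Aox3, Cbr1, Cbr2 and Cbr3), and it also had the highest mean of the club cell markers in that group (10.97). Without it all 7 calls between 40 ppm and air in WT were kept, and the calls that changed are named with the dose steps and the responses below.

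The starts of Cbr3 and Cbr1 are shown because these neighbours differed in their call. The windows are 200 bases before an annotated RefSeq start (GRCm38.p6), Cbr3 at chr16:93683019-93683218 and Cbr1 at chr16:93607637-93607836, both on the plus strand and written 5′ to 3′. Capitals mark the same 4 searched motifs.
Cbr3: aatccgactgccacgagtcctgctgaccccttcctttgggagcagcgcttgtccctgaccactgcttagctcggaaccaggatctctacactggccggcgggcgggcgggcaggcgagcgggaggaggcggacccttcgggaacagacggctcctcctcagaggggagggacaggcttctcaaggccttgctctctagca
Cbr1: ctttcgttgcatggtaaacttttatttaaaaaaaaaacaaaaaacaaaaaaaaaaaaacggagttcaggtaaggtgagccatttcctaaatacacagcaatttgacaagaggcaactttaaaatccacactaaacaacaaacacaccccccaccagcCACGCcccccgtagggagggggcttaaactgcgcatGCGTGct
Cbr1 held GCGTG once on each strand, and none of the 4 motifs was found in the Cbr3 window. Aligned, 87 of 177 bases were identical (49.2%), with a longest shared run of 7 bases. The antioxidant response core TGACNNNGC was in 8.6% of all windows and in 0 of the 9 windows of the 8 members with an entry. Aldh2 and Aldh3a1 had none.

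The dose steps in WT lungs were compared directly. At 40 ppm Aldh1a7, Aox1 and Aox3 were lower than at 10 ppm, while 0.947% of all tested genes were called. The 40 ppm minus 10 ppm difference was -0.46 for Aldh1a7, -0.32 for Aox1 and -0.41 for Aox3 (limma adjusted p = 0.00194, 0.00736 and 0.0277). For Aldh1a7 and Aox1 the arrays of these doses did not overlap, as for 1.99% of all genes. Cbr2 missed the threshold with -0.23 (0.0593) and passed it without array 5 of WT 10 ppm or array 5 of WT 40 ppm, in 1 fit on all 80 arrays (0.0156) and with another variance model (0.0239). Cbr1 passed without array 5 of WT 40 ppm (0.0445). The Aox3 call was lost without array 2, 3 or 4 of WT 10 ppm or of WT 40 ppm (adjusted p up to 0.0971, difference -0.50 to -0.37), and with a replicate block (0.0604). The Aox1 call was lost in 1 fit on all 80 arrays (0.0663).

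At 120 ppm, Aldh1a7 and Aox1 differed from 10 ppm by -0.32 and -0.26 (limma adjusted p = 0.0241 and 0.0344), where 0.903% of all genes were called, and their arrays did not overlap, as for 2.79% of all genes. The Aldh1a7 call was lost without array 1, 3 or 4 of WT 10 ppm or array 1, 3 or 5 of WT 120 ppm (adjusted p up to 0.0862), and the Aox1 call without array 1, 3 or 4 of WT 10 ppm or array 1, 3, 4 or 5 of WT 120 ppm (up to 0.121). In 1 fit on all 80 arrays both were lost, Aldh1a7 with 0.183 and Aox1 with 0.251, and Aox1 also with no filter on low signal (0.0506) and with a replicate block (0.0589). Aox3 differed by -0.37 (0.0532) and, like Cbr2, passed without array 5 of WT 10 ppm. It also passed with a stricter filter on low signal, another variance model or centred arrays (0.0494, 0.0342 and 0.0461). Between 120 and 40 ppm limma called 0 of the 10 members and 0% of all genes (0 members and 839 genes at an unadjusted p under 0.05). No member's arrays at 120 and 40 ppm were apart, against 1.24% of all genes. The member differences ran from -0.31 for Aldh3a1 to 0.21 for Cbr3.

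In KO lungs, limma called 0 of the 10 genes at 10, 40 and 120 ppm, and 0% of all tested genes. At an unadjusted p under 0.05 there were 0 members at each dose, and 649, 564 and 596 of all genes. Aox3 had 9.46, 9.41, 9.27, 8.99 and 9.45 on the KO 120 ppm arrays against 8.91, 9.18, 9.24, 9.42 and 9.35 in KO air, and the groups overlapped. Exposed and air arrays of KO overlapped for all 10 members at each dose, where 1.24, 0.85 and 0.763% of all genes did not overlap. Without Aldh3a1, whose arrays spread widely, the member differences lay between -0.04 and 0.16 at 10 ppm, -0.06 and 0.11 at 40 ppm and -0.13 and 0.15 at 120 ppm. Their 95% intervals together ran from -0.22 to 0.33, from -0.23 to 0.27 and from -0.30 to 0.34, so none reached the Aox3 fall seen in WT.

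In TG lungs, limma called 0 of the 10 genes at each dose, with 0, 0 and 0.0701% of all genes called at 10, 40 and 120 ppm (1, 2 and 2 members and 1579, 867 and 1439 genes at an unadjusted p under 0.05). Aox3 was the member with the lowest p. It had 9.12, 8.89, 9.14, 9.15 and 9.06 in TG air, 9.16, 9.33, 9.25, 9.46 and 9.21 at 10 ppm, 9.38, 9.32, 9.27, 9.48 and 9.31 at 40 ppm and 9.33, 9.55, 9.39, 9.37 and 9.59 at 120 ppm. As deposited, every exposed array was above every air array. The differences were 0.21, 0.28 and 0.38 (limma adjusted p = 0.262, 0.474 and 0.0689), which did not pass. All genes together shifted by a median of 0.06, 0.05 and 0.06 in TG, and by 0.005, 0.001 and 0.009 without TG 0 ppm replicate 4, whose median over the tested genes was 6.60 against 6.91 to 6.96 on the other TG air arrays. Relative to each array's median, Aox3 was at 2.55 on this array, within the range of the exposed arrays (2.22 to 2.66), so the separation does not hold after centring. With centred arrays the Aox3 differences were 0.15, 0.22 and 0.30 (limma adjusted p = 0.508, 0.692 and 0.219). Without this array and centred, exposed and air arrays still overlapped at 10 ppm and were apart at 40 and 120 ppm.

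As deposited, exposed and air arrays of TG did not overlap for Aox3 at each dose, and at 120 ppm also for Cbr1, which differed by 0.26 (adjusted p = 0.198). This held for 2.24, 1.34 and 1.94% of all genes at 10, 40 and 120 ppm. The Aox3 difference at 120 ppm passed the threshold with the mean of all probe sets of a gene and with another variance model (lowest adjusted p 0.0272). Without Aldh3a1, the members ran from -0.21 to 0.21 at 10 ppm, -0.01 to 0.28 at 40 ppm and -0.08 to 0.38 at 120 ppm, with 95% intervals from -0.42 to 0.40, -0.23 to 0.44 and -0.24 to 0.54. The Aldh2 probe sets not used in these ranges differed more in TG at some doses. As deposited, 1437410_PM_at differed by 0.30, 0.55 and 0.38 and 1457155_PM_at by 0.07, 0.33 and 0.31, with no call.

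In CD-1 lungs, limma called 0 of the 10 genes at each dose, with 0, 0.00877 and 0.0175% of all genes called at 10, 40 and 120 ppm (0, 1 and 2 members and 272, 442 and 597 genes at an unadjusted p under 0.05). Aox3 had 9.76, 9.39, 9.27, 9.57 and 9.55 in CD-1 air, 9.45, 9.56, 9.54, 9.21 and 9.23 at 10 ppm, 8.84, 9.14, 8.77, 8.47 and 9.27 at 40 ppm and 8.71, 8.99, 9.04, 9.24 and 9.24 at 120 ppm. At 120 ppm all 5 arrays lay below the air arrays, which was the 1 case among the members in CD-1. Over all genes 0.377, 0.666 and 1.27% did not overlap at 10, 40 and 120 ppm. The differences were -0.11, -0.61 and -0.46 (limma adjusted p = 1, 0.352 and 0.478). In 1 fit on all 80 arrays the Aox3 differences at 40 and 120 ppm passed (0.000285 and 0.00884). Without Aldh3a1, the members ran from -0.19 to 0.16, -0.61 to 0.25 and -0.46 to 0.25, and the 95% intervals from -0.52 to 0.45, -0.90 to 0.53 and -0.75 to 0.53. The Aldh2 probe sets not used here differed by 0.12, -0.13 and 0.22 (1437410_PM_at) and by -0.13, 0.12 and -0.30 (1457155_PM_at), with no call.

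**Figure D2:**
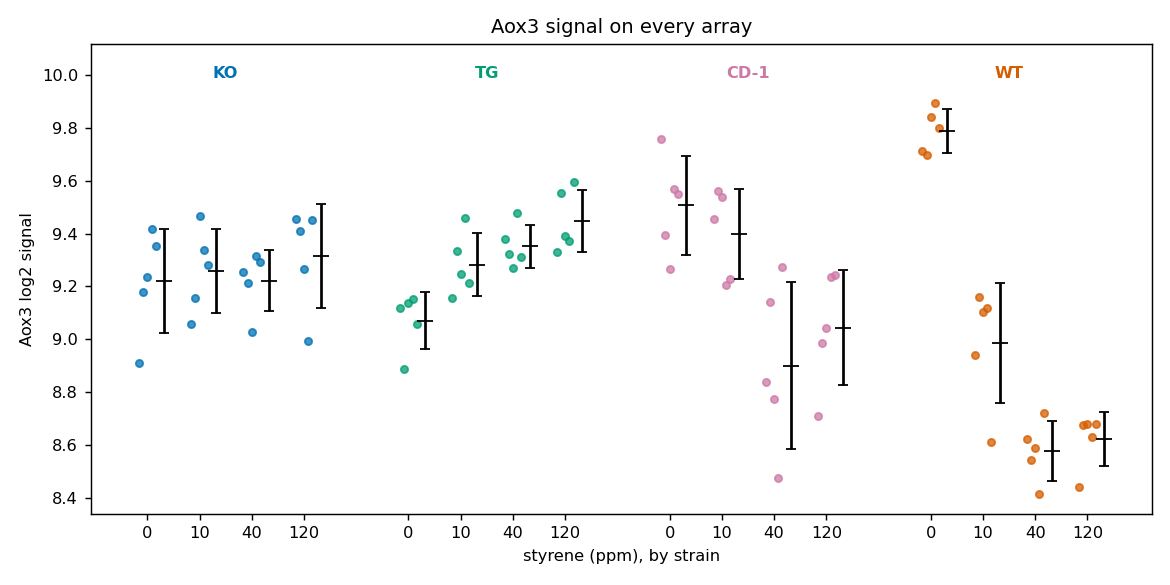
Aox3 log2 signal on each of the 80 arrays, by strain and styrene dose in ppm. Points are arrays and bars are the mean and SD of 5 arrays. Values are as deposited, so heights are comparable within a strain and not between strains. The mean in WT is 9.79 in air and 8.62 at 120 ppm, with no overlap of the arrays.

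Whether the strains differed in their response was tested as the change in KO, TG or CD-1 minus the change in WT, on the 40 arrays of both strains. All 9 comparisons share the WT arrays, so their results are not independent. In the comparison of KO with WT, 7.59, 13.9 and 11.4% of all tested genes were called at 10, 40 and 120 ppm. Among the members, 4, 6 and 6 were called.

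Aox3 differed most. Its change in KO minus that in WT was 0.84 at 10 ppm, 1.21 at 40 ppm and 1.26 at 120 ppm (each ± 0.14, limma adjusted p = 5.29e-05, 7.73e-08 and 3.37e-08). Cbr2 differed by 0.28, 0.47 and 0.49 (0.0102, 1.49e-05 and 6.46e-06) and Aldh1a1 by 0.30, 0.43 and 0.37 (0.0416, 0.00178 and 0.00766). Aldh1a7 and Aox1 were called at 40 and 120 ppm, Aldh1a7 with 0.77 and 0.48 (3.15e-06 and 0.00251) and Aox1 with 0.54 and 0.42 (0.00111 and 0.0131). Cbr3, which rose in WT, had the opposite sign, with -0.56, -0.45 and -0.47 (0.00988, 0.0293 and 0.0249).

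Some of these calls were lost when 1 array was left out, with their direction kept. Aldh1a1 at 10 ppm was lost without array 1, 2 or 5 of KO air, array 3 or 5 of KO 10 ppm, array 1, 2 or 5 of WT air or array 1, 2 or 5 of WT 10 ppm (adjusted p up to 0.0904). Cbr3 at 40 ppm was lost without array 3 or 4 of KO air, array 3 or 5 of KO 40 ppm, array 5 of WT air or array 5 of WT 40 ppm (up to 0.067), and at 120 ppm without array 4 of KO air, array 5 of WT air or array 2 of WT 120 ppm (up to 0.0529). In 1 fit on all 80 arrays, Aldh1a1 at 10 ppm (0.0684) and Cbr3 at 40 and 120 ppm (0.0961 and 0.088) were lost, and Aldh1a1 also with no filter on low signal (0.0574). Aldh2 passed at 10 and 120 ppm with the mean of its probe sets (0.0376 and 0.0216), and Aldh3a2 at 10 ppm with centred arrays or quantile normalization (0.0477 and 0.0423).

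In the comparison of TG with WT, 5.51, 10.1 and 9.75% of all tested genes were called, and 3, 6 and 5 members. The Aox3 change in TG minus that in WT was 1.01, 1.49 and 1.55 (limma adjusted p = 8.93e-08, 4.22e-11 and 1.31e-11), and at 40 and 120 ppm no other tested gene had a lower p. Cbr2 differed by 0.27, 0.59 and 0.49 (0.0334, 1.81e-06 and 4.67e-05) and Aldh1a7 by 0.34, 0.77 and 0.68 (0.0326, 7.57e-07 and 9.32e-06). Aldh1a1 was called at 40 and 120 ppm with 0.51 at both (0.00248 and 0.00266), Aox1 with 0.56 and 0.58 (0.00129 and 0.000983), and Aldh2 at 40 ppm alone among the 3 doses with 0.49 (0.00775). Cbr3 differed by -0.50, -0.27 and -0.37 (0.0907, 0.374 and 0.188), with no call. At 10 ppm the Aldh1a7 call was lost without array 1 of TG air, array 3 or 4 of TG 10 ppm, array 1, 2 or 3 of WT air or array 5 of WT 10 ppm (adjusted p up to 0.0849), and the Cbr2 call without array 1 of TG air, array 3, 4 or 5 of TG 10 ppm, array 1, 2 or 4 of WT air or array 1 or 5 of WT 10 ppm (up to 0.0922). With centred arrays both were lost (0.134 for Aldh1a7 and 0.133 for Cbr2). Aldh1a7 was lost in 1 fit on all 80 arrays (0.192), and Cbr2 with no filter on low signal (0.0509) and after quantile normalization (0.199). Aldh2 passed at 10 and 120 ppm with the mean of its probe sets (0.0188 and 0.0022). A difference between the responses of TG and KO was not tested.

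In the comparison of CD-1 with WT, 1.89, 1.61 and 4.37% of all tested genes were called, and 1, 2 and 4 members. The Aox3 change in CD-1 minus that in WT was 0.69 at 10 ppm and 0.70 at 120 ppm (each ± 0.17, limma adjusted p = 0.0166 and 0.0121), and 0.60 at 40 ppm (0.0542), which did not pass. Cbr2 differed by 0.36 at 40 ppm and 0.47 at 120 ppm (0.0315 and 0.00211), Aldh1a1 by 0.39 and 0.37 (0.0422 and 0.0309), and Aox1 by 0.46 at 120 ppm (0.0262). At 40 ppm, Aox3 passed without array 1 of CD-1 air, array 4 of CD-1 40 ppm or array 5 of WT 40 ppm, in 1 fit on all 80 arrays (0.0115) and with another variance model (0.0463).

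Of the 7 CD-1 calls, 5 were lost when 1 array was left out. Aox3 at 10 ppm was lost without array 5 of WT 10 ppm (adjusted p = 0.0541). Aldh1a1 at 40 ppm was lost without array 1, 2 or 5 of CD-1 air, array 1, 2, 3 or 5 of CD-1 40 ppm, array 1, 2, 3 or 5 of WT air or array 1, 2, 3 or 4 of WT 40 ppm (up to 0.0827), and at 120 ppm without array 1, 2 or 5 of CD-1 air, array 1, 3 or 5 of CD-1 120 ppm, array 2 of WT air or array 1 or 5 of WT 120 ppm (up to 0.0702). Cbr2 at 40 ppm was lost without array 1 or 2 of CD-1 air, array 3 or 5 of CD-1 40 ppm, array 2 of WT air or array 1 or 3 of WT 40 ppm (up to 0.0687). Aox1 at 120 ppm was lost without array 4 of CD-1 120 ppm, array 3 of WT air or array 5 of WT 120 ppm (up to 0.055). Aldh1a1 was also lost after quantile normalization at 40 and 120 ppm (0.0647 and 0.0549), and at 40 ppm with no filter on low signal (0.0591) and with a replicate block (0.0596). The calls for Aox3 and Cbr2 at 120 ppm held without any 1 array.

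**Figure D3:**
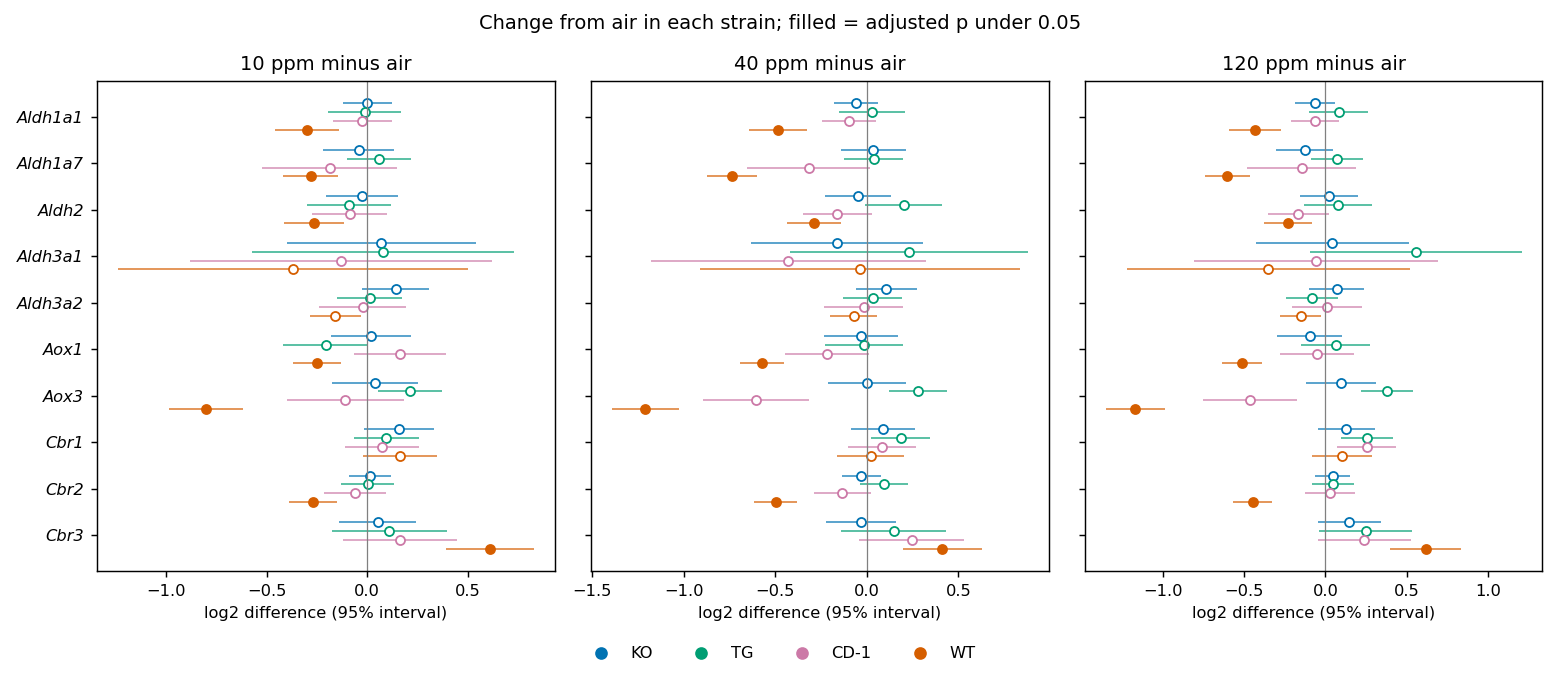
Log2 difference from air of the same strain, with its 95% interval, for the 10 genes at 10, 40 and 120 ppm in KO, TG, CD-1 and WT. Filled points have an adjusted p under 0.05, and all filled points belong to WT. Aox3 in WT reaches -1.21 at 40 ppm, and the widest intervals are those of Aldh3a1.

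In air, before any styrene, the strains were compared on the 20 air arrays after centring. Cbr1 and Cbr3 were lower in each of KO, TG and CD-1 than in WT. Aox1 was lower than in WT in 2 of them, KO and TG, and Cbr2 was higher in both relative to each array's median. As deposited, without centring, the sign of the Cbr2 differences flips, to -0.11 in KO and -0.20 in TG, because the array medians of these strains were lower. The median of an air array differed from WT by -0.37 for KO, -0.48 for TG and -0.24 for CD-1. All 4 comparisons use the same few air groups, so they are not independent.

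Of all tested genes, 12.7% were called between KO and WT in air, 35.3% between TG and WT, 31.7% between CD-1 and WT and 26.1% between TG and KO. Among the members, 4, 5, 3 and 1 were called. The arrays of 3, 4, 2 and 0 members did not overlap, as for 14.7, 22.9, 23.6 and 15.7% of all genes. Of the genes called over the whole table, 50.4, 53.7, 52.2 and 51.6% were higher in the first strain with centring, and 0.538, 0.927, 8.93 and 20.7% as deposited.

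Cbr1 averaged 1.60 above the array median in KO, 1.54 in TG, 1.26 in CD-1 and 1.84 in WT. It differed from WT by -0.23, -0.29 and -0.58 (limma adjusted p = 0.0191, 0.00134 and 5.54e-07), with no overlap of the arrays. Cbr3 differed from WT by -0.30 (KO), -0.33 (TG) and -0.36 (CD-1) (0.0215, 0.00429 and 0.00256), with overlap in KO. Both were also lower as deposited, which is no separate check, since the lower array medians of these strains move every gene that way.

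Aox1 averaged 0.91 above the array median in KO, 1.20 in TG, 1.52 in CD-1 and 1.46 in WT. It differed from WT by -0.55 in KO and -0.26 in TG (limma adjusted p = 0.0016 and 0.0461) and was 0.29 higher in TG than in KO (0.0388), and the arrays overlapped in the comparisons with TG. The call between TG and WT was lost without array 1, 2 or 5 of TG air or any 1 of the 5 WT air arrays (adjusted p up to 0.136, difference -0.36 to -0.19), and that between TG and KO without array 1, 2, 3 or 4 of KO air or array 1, 3 or 4 of TG air (up to 0.102). Cbr2 was higher than in WT by 0.26 in KO and 0.28 in TG (0.0219 and 0.00461), Aldh2 by 0.35 in TG (0.0141), and Aldh3a2 differed by -0.25 in CD-1 (0.0169). As deposited the Cbr2 and Aldh2 differences are -0.11, -0.20 and -0.14, below 0. After quantile normalization these 3 calls were lost as well, with Cbr2 differences of 0.020 and 0.036 (adjusted p = 0.843 and 0.622) and an Aldh2 difference of 0.20 (0.0709), and with the mean of its probe sets Aldh2 differed by 0.045 (0.695). With no filter on low signal, Cbr1 in KO (0.0686), Aox1 in TG against WT and against KO (0.169 and 0.0548) and Aldh3a2 in CD-1 (0.101) were lost. With a replicate block Aox1 in TG was lost against both WT and KO (0.0601 and 0.0533), against WT also with the mean of probe sets (0.105) and against KO also as deposited (0.18, 0.114). Aox3 passed in TG without TG 0 ppm replicate 4 (-0.32, 0.0255) and after quantile normalization (-0.29, 0.0249). The Cbr1 call in KO was lost without array 1 or 2 of WT air (0.0553), the Cbr3 call in KO without array 1 or 2 of KO air or array 1 or 3 of WT air (0.0662), and the Aldh3a2 call in CD-1 without array 1 of WT air (0.0532).

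**Figure D4:**
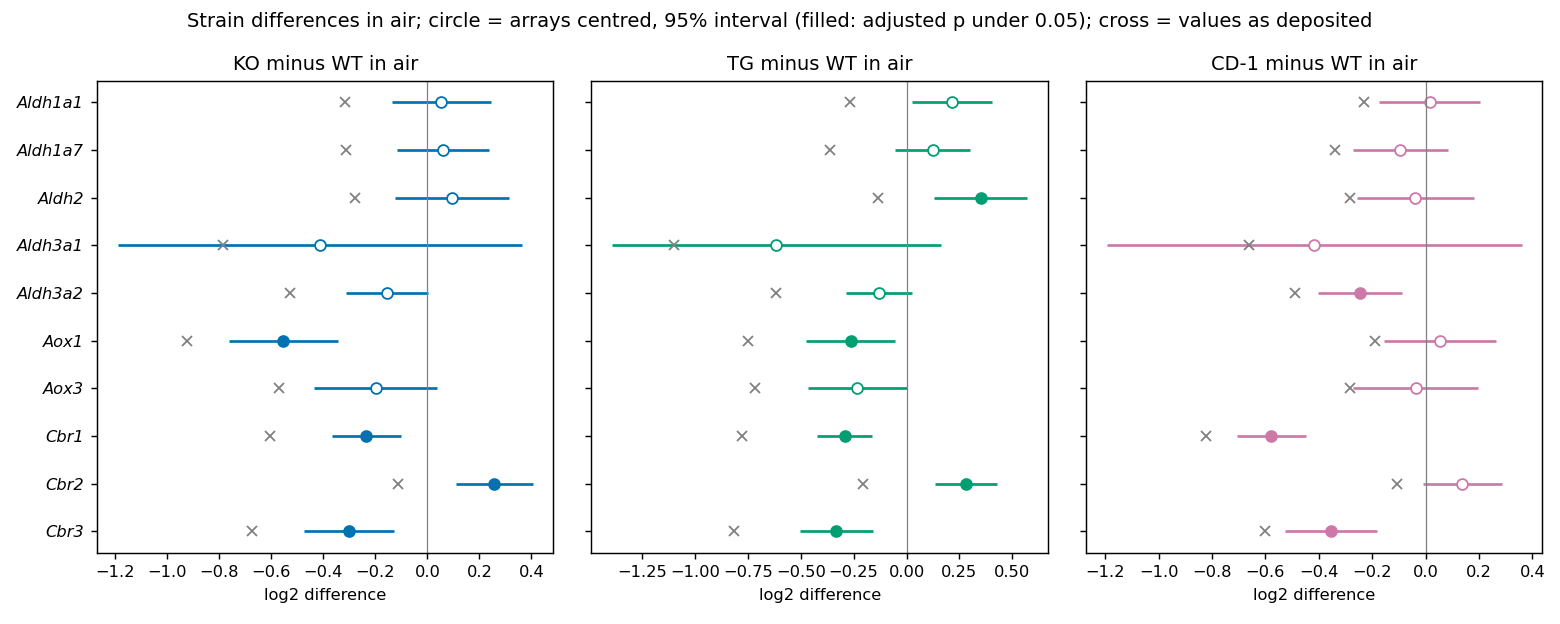
Log2 difference between strains in air for the 10 genes, with a panel each for KO, TG and CD-1 minus WT. Circles with a 95% interval are values after each array was centred, filled where the adjusted p is under 0.05, and crosses are the values as deposited. The crosses lie to the left of the circles in each panel, and those of Cbr2 against WT in KO and TG lie below 0 while the circles lie above it.

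Aldh3a1 had the largest SD of any member within a group, 1.22 at WT 40 ppm. It had 9.53, 8.57, 8.23, 7.86 and 7.95 in WT air, 7.73, 7.91, 8.46, 8.001 and 8.20 at 10 ppm, 7.36, 7.75, 10.36, 7.72 and 8.75 at 40 ppm and 8.06, 8.43, 8.14, 8.11 and 7.66 at 120 ppm. The 2 highest arrays, WT 0 ppm replicate 1 and WT 40 ppm replicate 3, are those on which the squamous epithelium markers stood apart, and CD-1 0 ppm replicate 4, the third such array, had 8.77. No dose change passed in WT (-0.37, -0.04 and -0.35, each ± 0.42, limma adjusted p = 0.613, 0.958 and 0.581). Without these 3 arrays the changes were -0.09, -0.26 and -0.07 (0.837, 0.487 and 0.851), and the number of members called in WT was again 7 at each dose. Of the 76 calls over all comparisons 66 remained. Those lost were Aox3 at 40 minus 10 ppm in WT (adjusted p = 0.0823), the responses of Aldh1a1 in KO (0.0569) and of Aldh1a7 and Cbr2 in TG (0.0512 and 0.056) at 10 ppm, those of Aldh1a1 and Cbr2 at 40 ppm and Aox1 at 120 ppm in CD-1 (0.0959, 0.0838 and 0.0558), and in air Cbr1 in KO, Aox1 in TG and Aldh3a2 in CD-1 against WT (0.0611, 0.0593 and 0.11).

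Among the 20 WT arrays the genes most like Aldh3a1 were Myl1 (r = 0.94), Tnnt3 (0.93) and Apobec2 (0.92), 3 genes known from skeletal muscle. Myl1 had 7.26 and 9.03 on the same 2 WT arrays and 4.23 to 5.95 on the other 18. Without the 2 arrays the most alike were Adh7 (0.93), an alcohol dehydrogenase of stomach and airway lining, Tctex1d4 (0.91) and Cdhr4 (0.89). Over 80 arrays, with group means subtracted, Aldh3a1 had r = 0.59 with the squamous and 0.67 with the club cell markers. On the 77 arrays without the 3, r was 0.26 and 0.80. These are descriptions over arrays that share their groups and normalization.

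**Figure D5:**
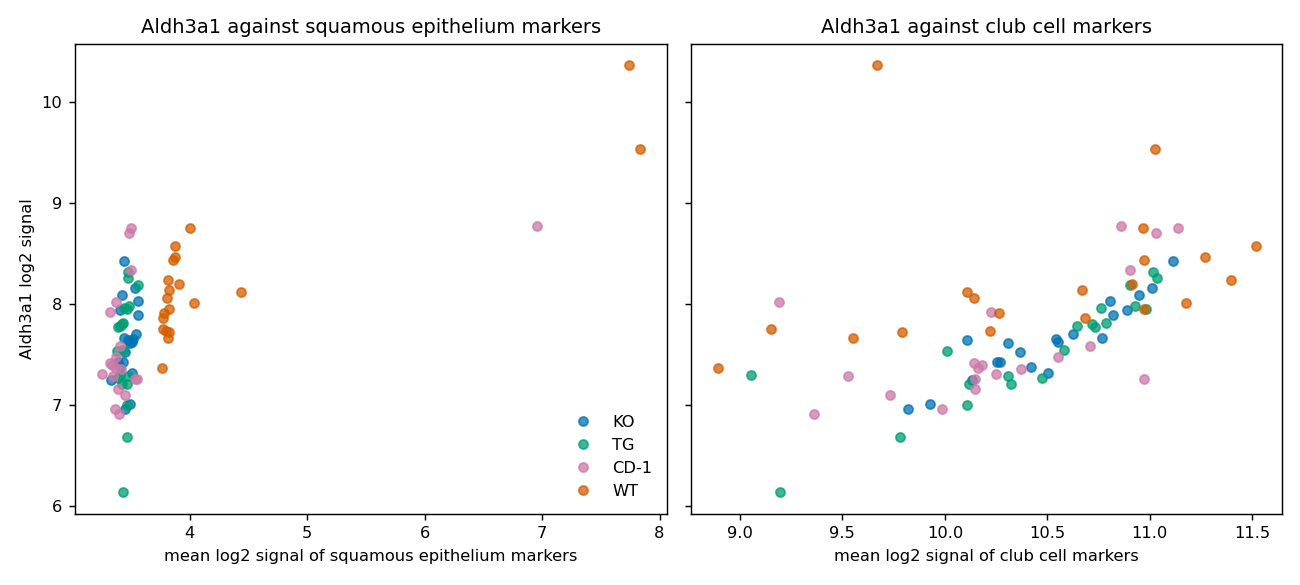
Aldh3a1 log2 signal on each of the 80 arrays against the mean log2 signal of the squamous epithelium markers and of the club cell markers. Points are single arrays, coloured by strain. On the squamous axis 3 arrays lie between 6.96 and 7.83 and the others between 3.25 and 4.44.

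Markers of lung cells were read in WT beside the shares over all genes, 4.9, 12.4 and 9.65% called lower and 7.67, 13.7 and 14.3% called higher at 10, 40 and 120 ppm. Of 11 club cell markers tested, 2, 10 and 4 were called lower and 0 higher at 10, 40 and 120 ppm, with median changes of -0.34, -1.56 and -0.75. The mean over these markers ran from 10.68 to 11.52 in air, 10.22 to 11.27 at 10 ppm, 8.89 to 10.97 at 40 ppm and 9.55 to 10.97 at 120 ppm. At 120 ppm Scgb3a2, a secretoglobin, fell by 0.80 and Cyp2f2 by 0.63, while Scgb1a1, the main club cell secretory protein, differed by -0.10 (limma adjusted p = 0.0925). Of 6 ciliated cell markers 1, 2 and 3 were lower (medians -0.31, -0.32 and -0.41), and of 6 alveolar type 2 markers 1, 1 and 2 were higher (0.03, 0.05 and 0.10). Of 4 alveolar type 1 markers 1 was lower at 10 ppm and 1 higher at 40 and at 120 ppm, of 5 endothelial markers 1 was lower at 40 ppm, and of 5 macrophage markers 1 was higher at 40 ppm, with medians from -0.17 to 0.28. Such counts of 0 to 2 in a short list read no further than the shares over all genes. Markers of hepatocytes, the best known source of AOX3 in mice, were low, with 0 of 6 above the table median on 40 or more of the 80 arrays. Their mean lay between 2.87 and 3.69, apart from KO 40 ppm replicate 2 (4.97), WT 40 ppm replicate 3 (4.79) and CD-1 120 ppm replicate 2 (4.29).

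With group means subtracted, the correlation with the club cell markers over 80 arrays was 0.73 for Aldh1a1, 0.67 for Aldh3a1, 0.59 for Cbr1, 0.52 for Cbr3 and 0.39 for Cbr2. It was 0.26 for Aldh1a7, 0.17 for Aox3, and 0.05 for Aox1 and Aldh2, and -0.14 for Aldh3a2. For the members called lower in WT, r ran from 0.05 (Aox1 and Aldh2) to 0.73 (Aldh1a1). The marker mean is not scaled, so markers that vary widely between arrays weigh most in r. The SE of the change at 120 ppm in WT was 0.64 for Bpifb1 and 0.04 for Scgb1a1. Cbr1 and Cbr3, which were not called lower, had 0.59 and 0.52. Without the 3 arrays high in squamous markers r was 0.73 for Aldh1a1, 0.16 for Aox3 and 0.08 for Aox1 on 77 arrays. The part of the club and ciliated cell markers in the results was not tested.

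The members also ran with each other in WT. Over the 20 WT arrays r was 0.97 between Aldh1a7 and Aox1, 0.95 between Aox3 and Cbr2, 0.91 between Aox1 and Aox3, 0.88 between Aldh1a1 and Aldh1a7, 0.67 between Cbr1 and Cbr3 and -0.73 between Aldh2 and Cbr3. Without the 2 WT arrays high in squamous markers they were 0.97, 0.95, 0.90, 0.86, 0.73 and -0.71 on 18 arrays. These values include the dose differences. Within groups over 80 arrays they were 0.33, 0.31, 0.49, 0.40, 0.64 and -0.41. Within groups over the 20 WT arrays they were 0.71, 0.61, 0.16, 0.49, 0.75 and -0.47, so Aox1 and Aox3 varied together little there.

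Of the 11405 other tested genes, those most like each member over the 20 WT arrays were as follows. Aox3 ran with Ldhb (0.97), Ces1d (0.96) and Abcg1 (0.96), and Cbr2 with Acss1, Elapor1 (0.96 each) and Ldhb (0.95). Aldh1a7 ran with Elapor1 (0.97), Aox1 (0.97) and Cckar (0.96), and Aox1 with Aldh1a7 (0.97), Elapor1 (0.96) and Scgb3a2 (0.94). Aldh1a1 ran with Lrrc23, Slc16a11 and Lypd2 (0.95 each). Cbr3 ran with Blvrb (0.94), Gclm (0.90) and Procr (0.89), of which Blvrb is biliverdin reductase B and Gclm a subunit of the enzyme that starts glutathione synthesis. Aldh2 ran with Igfbp3, Rmnd5a and Adcy9 (0.92 to 0.91). Those nearest to Aldh3a2 (Manba, 1810008I18Rik and Pggt1b) and to Cbr1 (Ttc21a, Agr2 and Kcnmb1) had r between 0.73 and 0.75.

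Without the 2 WT arrays high in squamous markers, the 3 nearest genes of Aox3 and of Cbr3 were the same. Aldh1a7, Aox1 and Cbr2 shared 2 of 3 with the lists above, and Aldh1a1 and Aldh3a2 shared 1 of 3, Lrrc23 and 1810008I18Rik. For Aldh2 and Cbr1 none was shared on these 18 arrays. The nearest to Aldh2 were then Clk1 (0.94), Rtn2 (0.92) and Lims2 (0.92), and those to Cbr1 were Aoc1 (0.83), Hcar2 (0.80) and St14 (0.77).

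Other enzymes of the same chemistry were counted in WT beside the same shares over all genes, and most of these short lists held few calls. Of 10 other aldehyde dehydrogenases tested, 0, 1 and 0 were called higher and 2, 4 and 2 lower at 10, 40 and 120 ppm (medians -0.09, -0.20 and -0.10). Aldh5a1, which oxidizes succinic semialdehyde, fell by 0.42, 0.58 and 0.67 (limma adjusted p = 0.00691, 0.000292 and 7.81e-05), and Aldh6a1, of valine breakdown, by 0.32, 0.35 and 0.42 (0.0422, 0.0137 and 0.00553). Of 4 molybdenum enzyme and cofactor genes, 1, 2 and 2 were higher and 0 lower. Suox, sulfite oxidase, differed by 0.04, 0.23 and 0.33 (0.732, 0.0215 and 0.00223), and Mocs3, of cofactor synthesis, rose by 0.32, 0.24 and 0.31 (0.0109, 0.0319 and 0.00843). Aox3 and Aox1, which need this cofactor, thus fell while these 2 genes rose at 40 and 120 ppm.

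None of 3 alcohol dehydrogenases was called by limma (medians -0.08, -0.06 and -0.12). Of 10 aldo-keto reductases, Akr1b8, an aldose reductase relative, rose by 0.81, 1.26 and 1.09 (limma adjusted p = 0.00441, 4.79e-05 and 0.000223). It was the 1 aldo-keto reductase called higher at each dose, and 0, 4 and 2 were lower, Akr1e1 and Akr1c18 at 120 ppm with -0.31 and -0.86 (0.0151 and 0.0276). Of 9 short-chain carbonyl reductases 0, 0 and 1 were higher and 1, 2 and 2 lower, with medians of -0.005, 0.005 and 0.040. Dcxr, which reduces dicarbonyls and xylulose, fell by 0.37, 0.55 and 0.42 (0.00136, 1.51e-05 and 0.000277). Of 6 retinoic acid pathway genes 0 were higher and 0, 1 and 1 lower, and Rdh10, a retinol dehydrogenase, differed by -0.20, -0.32 and -0.24 (0.12, 0.00745 and 0.0411).

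Of 13 targets of NRF2, the transcription factor that responds to electrophiles, 10, 7 and 9 were higher and 1 lower at each dose in WT (medians 0.31, 0.17 and 0.29). Nqo1, a quinone reductase, rose by 0.94, 1.06 and 1.12 (limma adjusted p = 4.77e-06, 1.14e-06 and 6.12e-07), and Hmox1, heme oxygenase, by 1.05, 1.82 and 1.68 (0.00132, 2.51e-06 and 6.86e-06). Cbr3 was the only member called higher in WT, and the Cbr1 means were also above air, with no call. A role of NRF2 in these changes was not tested. In KO, TG and CD-1, limma called 0 genes of these lists at any dose. Of all tested genes 0% were called in KO, at most 0.0701% in TG and at most 0.0175% in CD-1. A count of 0 in short lists therefore says little about these genes. The largest NRF2 target difference at 120 ppm among those named was Nqo1 in CD-1, with 0.87 (0.196), and in TG it was Nqo1 with 0.35 (0.351).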

How the data were processed

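Whole lungs of 80 male mice (4 strains, 4 doses, 5 biological replicates per group) were measured. The values deposited by the authors are log2 signals of 45037 probe sets, for which the submitters' processing notes name RMA and Partek. Neither versions and settings nor a joint processing of the strains is stated there. RMA can compress changes of low and very high signals. Of the probe sets, 28898 had 1 symbol (551 had several, 15588 were not in the annotation), and 16936 genes matched RefSeq by gene ID. Per gene the probe set with the highest mean was used, and genes above the table median (4.28) on at least 5 arrays were tested (11406).

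The linear models of limma (version 3.58.1, R version 4.3.3) were used: each strain alone for doses, 40 arrays for response differences, the 20 air arrays, centred on their medians, for strains in air. P values were adjusted by Benjamini-Hochberg over all tested genes of a comparison. The scripts were tested on simulated data. The members and lists were chosen with earlier results of these data known. All members were named, then the 3 genes most like each, and up to 4 genes of a list by p at 120 ppm in WT. P values set a difference against the spread between mice within groups. That spread was pooled over the groups of a fit and drawn toward that of the other genes. Alternatives tried are in the closing section.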

Additional observations from a re-analysis of the deposited data

Results flagged for a closer look

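Of 160 groups of 5 arrays (10 genes in 16 groups), 9 held an array set apart from the others by a gap too large for its group's range (Dixon's test), where chance alone gives about 8. They were Aldh1a1 in WT 40 ppm replicate 5 (12.35), Aldh2 in CD-1 40 ppm replicate 4 (10.49) and KO 10 ppm replicate 3 (10.85), Aldh3a1 in KO 0 ppm replicate 4 (8.15) and Aox3 in WT 120 ppm replicate 1 (8.44). The others were Cbr1 in CD-1 120 ppm replicate 2 (8.32), KO 0 ppm replicate 4 (8.73) and TG 120 ppm replicate 2 (8.81), and Cbr2 in TG 40 ppm replicate 2 (13.28). KO 0 ppm replicate 4 was the highest of its group for both Aldh3a1 and Cbr1, and it also had the highest mean of the club cell markers in that group (11.01).

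The other results are differences in response, the change in KO, TG or CD-1 minus that in WT, that passed the limma threshold. In KO minus WT they were, at 10 ppm, Aldh1a1 0.30, Aox3 0.84, Cbr2 0.28 and Cbr3 -0.56. At 40 ppm they were Aldh1a1 0.43, Aldh1a7 0.77, Aox1 0.54, Aox3 1.21, Cbr2 0.47 and Cbr3 -0.45, and at 120 ppm Aldh1a1 0.37, Aldh1a7 0.48, Aox1 0.42, Aox3 1.26, Cbr2 0.49 and Cbr3 -0.47.

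In TG minus WT they were, at 10 ppm, Aldh1a7 0.34, Aox3 1.01 and Cbr2 0.27. At 40 ppm they were Aldh1a1 0.51, Aldh1a7 0.77, Aldh2 0.49, Aox1 0.56, Aox3 1.49 and Cbr2 0.59, and at 120 ppm Aldh1a1 0.51, Aldh1a7 0.68, Aox1 0.58, Aox3 1.55 and Cbr2 0.49.

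In CD-1 minus WT they were Aox3 0.69 at 10 ppm, Aldh1a1 0.39 and Cbr2 0.36 at 40 ppm, and Aldh1a1 0.37, Aox1 0.46, Aox3 0.70 and Cbr2 0.47 at 120 ppm.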

How the results depend on the processing

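Of 76 member changes called by limma, 56 kept their call whichever array was left out. Kept calls were 68 with no filter on low signal, 76 with a stricter filter, 73 with the mean of a gene's probe sets, 76 with another variance model (eBayes with trend and robust), 70 after quantile normalization and 66 without the 3 arrays high in squamous epithelium markers, an alternative chosen after seeing the data. Of the 63 dose and response calls, 61 were kept with centred arrays and 53 in 1 fit on all 80 arrays.

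Counts of called members moved by over 1.5 times as follows. For TG at 120 ppm the count was 1 with the mean of probe sets and 1 with the other variance model, and for CD-1 at 40 and at 120 ppm it was 1 in the fit on 80 arrays. For 120 ppm minus 10 ppm in WT it was 1 with no filter, 1 with a replicate block and 0 in the fit on 80 arrays. For the TG response at 10 ppm it was 1 with centred arrays and 1 without the squamous arrays. For the CD-1 response at 40 ppm it was 1 with no filter, 1 with a replicate block, 1 after quantile normalization and 0 without the squamous arrays. For strains in air as deposited it was 8, 9 and 7 for KO, TG and CD-1 against WT, with 8552, 9167 and 6090 of all genes called against 1448, 4024 and 3612 with centring. TG against KO in air gave 0 with no filter and 0 with a replicate block. The cause of these moves was not tested, except that as deposited the strains' array medians differ.

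Reversed in air as deposited were, for KO minus WT, Aldh1a1 -0.32, Aldh1a7 -0.31, Aldh2 -0.28 and Cbr2 -0.11, for TG minus WT, Aldh1a1 -0.27, Aldh1a7 -0.36, Aldh2 -0.14 and Cbr2 -0.20, and for CD-1 minus WT, Aldh1a1 -0.23. A change of sign was counted only where the main or the alternative value was called, and none was counted under the other alternatives. Uncalled differences could change sign. In CD-1 minus WT in air, Aox3 (-0.04 in the main fit) ran from -0.28 to 0.02 over the alternatives. There Cbr2 (0.14) ran from -0.11 to 0.19.

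Leaving out 1 array at a time, the count of called members ran from 6 to 8 at WT 10 ppm, 7 to 7 at WT 40 ppm, 6 to 8 at WT 120 ppm and 0 to 0 at each dose in KO, TG and CD-1. It ran from 2 to 5 for 40 minus 10 ppm, 0 to 4 for 120 minus 10 ppm and 0 to 0 for 120 minus 40 ppm. For the responses at 10, 40 and 120 ppm it ran from 3 to 5, 5 to 7 and 5 to 7 in KO, 1 to 3, 6 to 6 and 5 to 7 in TG and 0 to 2, 0 to 3 and 2 to 4 in CD-1. In air it ran from 2 to 4 for KO, 4 to 6 for TG and 2 to 4 for CD-1 against WT and from 0 to 1 for TG against KO.

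The groups share replicate numbers, but arrays of one number did not deviate together. In 0 of 19 comparisons did all 5 pairs correlate over 0.1 (range -0.52 to 0.38), and in 0 did every array correlate best with its own number. With the number as a replicate block 71 of the 76 calls were kept.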
